A study of Mus musculus with 8 samples.

Results

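The genes described here are 10 genes of antigen presentation to helper T cells, taken by symbol from the count table of 24062 genes. They are the class II chain genes H2-Aa, H2-Ab1 and H2-Eb1, the invariant chain gene Cd74, the peptide loading genes H2-DMa and H2-DMb1, the class II transactivator gene Ciita, and the costimulatory genes Cd86, Cd80 and Cd40. All 10 were found, and all 10 had enough counts to enter the tests, as did 13197 genes in all.

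MHC class II molecules are pairs of an alpha and a beta chain that carry peptides of ingested protein to the cell surface, where CD4 T cells read them. The invariant chain (Cd74) guides newly made class II molecules to the endosome, proteases trim it there, and the H2-DM pair exchanges its last fragment for a peptide. Transcription of these genes is driven by CIITA, which binds no DNA itself and is recruited by the RFX, NF-Y and CREB factors that sit on the X and Y boxes of class II promoters. A T cell also needs costimulation, which Cd80 and Cd86 give through CD28, while CD40 receives the signal of CD40 ligand from the T cell. Macrophages and dendritic cells raise many of these on activation, and immature myeloid cells are known for presenting poorly.

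The 8 libraries were made from total RNA of immature myeloid cells (IMCs) of C57BL/6 mice aged 2 months, with 2 libraries to a group and 4 groups. PARP1CKO mice were PARP1 flox/flox with lysozyme-Cre, and PARP2CKO mice were PARP2 flox/flox with the same Cre. The PARP1 WT and PARP2 WT mice carried the corresponding flox/flox gene without Cre, so the gene of its line was floxed in every group. Bone marrow cells were grown for 3 days in 40 ng/mL of M-CSF, the growth factor of the macrophage lineage, and lysozyme-Cre acts in cells of that lineage, macrophages and neutrophils alike. The series describes the libraries as biological duplicates and does not say how many animals entered each. PARP1 and PARP2 add ADP-ribose chains to proteins and act in DNA repair and transcription, and the comparisons ask what their loss in myeloid cells changes.

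Library totals ran from 37852450 to 61845125 counts, and values are given as CPM, counts scaled to a common library size with TMM factors. Parp1 stood at 202 and 211 CPM in PARP1 WT against 63.2 and 59.1 CPM in PARP1CKO, and Parp2 at 48.2 and 48.3 CPM in PARP2 WT against 25.7 and 25.6 CPM in PARP2CKO. Itgam, which encodes CD11b, had 881 to 1035 CPM, Csf1r, the M-CSF receptor gene, 1134 to 1273 CPM, the macrophage gene Cd68 1546 to 1957 CPM and the neutrophil gene S100a9 858 to 1129 CPM over the 8 libraries. The cultures therefore held RNA of macrophage and neutrophil genes together, and their share of cells cannot be read from these data. Permuting 2 libraries against 2 gives an exact two-sided p of 0.333 at best, and tests were therefore taken from edgeR's quasi-likelihood model of all genes, with adjusted p-values after Benjamini and Hochberg called under 0.05. They measure only the spread between these libraries.

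The stretch before the start site is shown for the alpha chain gene of I-A and the beta chain gene of I-E. The chain genes and Cd74 moved together across the libraries, and the part of the promoters in this was not tested. The sequences are those of RefSeq on GRCm38.p6 and hold the 130 bases before the start site, chr17:34287824-34287953 on the minus strand for H2-Aa and chr17:34305737-34305866 on the plus strand for H2-Eb1. Capitals mark the X box core CTNGNAAC and the Y box core ATTGG, the latter also as CCAAT on the other strand.
H2-Aa: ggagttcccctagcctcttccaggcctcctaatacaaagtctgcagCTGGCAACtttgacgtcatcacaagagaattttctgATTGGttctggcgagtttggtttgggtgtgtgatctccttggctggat
H2-Eb1: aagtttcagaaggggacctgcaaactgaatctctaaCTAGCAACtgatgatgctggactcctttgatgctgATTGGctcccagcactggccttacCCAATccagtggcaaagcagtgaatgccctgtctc

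The first base of the X box core lay at -84 in H2-Aa and -94 in H2-Eb1, and that of the Y box core at -48 and -59, so that 36 and 35 bases separate their first bases. H2-Eb1 has a further CCAAT at -35. The H2-DMb1 promoter held CTAGTAAC at -97 and ATTGG at -61 from the RefSeq start, again 36 bases apart, and GENCODE M21 places the start of that gene 119 bases further upstream. In H2-DMa, which has 2 promoter entries, the search found a single ATTGG at -198 of the second, and in Cd80 it found neither core. Both strands were searched, and the X and Y cores did not overlap. The search covered 300 bases per promoter, 250 before and 50 after the start site, of which the 130 bases shown are a stretch. Of 32851 promoters of 300 bases, 37.4% held the Y box core, 13.2% the X box core and 5.03% both. The letters CTNGNAAC were chosen after the sequences were seen. A first search with CCNAGNNAC, which 17.3% of the promoters matched, did not match at the X box positions of H2-Aa and H2-Eb1. Promoter sequences were at hand for 5 of the 10 genes. H2-Ab1, Cd74, Ciita, Cd86 and Cd40 had no promoter entry, so they were not searched.

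The chain and loading genes lie close together on chromosome 17. On mm10, as annotated by GENCODE M21, H2-DMa lies at chr17:34119541-34139101, H2-DMb1 at chr17:34153072-34160230, H2-Ab1 at chr17:34257689-34269419, H2-Aa at chr17:34282744-34287823 and H2-Eb1 at chr17:34305867-34316674. Ciita lies at chr16:10480059-10528418, Cd86 at chr16:36603869-36666081, Cd80 at chr16:38455561-38496335, Cd40 at chr2:165055627-165072948 and Cd74 at chr18:60803848-60812652. H2-Aa and Cd86 are on the minus strand and the others on the plus strand. Of the stretches of 75 bases in the transcripts, the read length, H2-DMb1 shares 15.8% with its close copy H2-DMb2, H2-DMa shares 7.46% with Brd2 on the opposite strand and Ciita 0.765% with Dexi on the opposite strand. The other 7 genes share none with another gene.

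Per length, Cd74 was the most abundant of the 10 genes and Ciita the least. Divided by the length of all exons of a gene in kb, the mean level over the 8 libraries was 220 CPM per kb for Cd74, 39.6 for H2-Eb1, 33.5 for H2-Aa and 29.9 for H2-Ab1. The loading genes followed with 14.7 CPM per kb for H2-DMb1 and 6.08 for H2-DMa. The costimulatory genes and the transactivator were lowest, with 4.46 CPM per kb for Cd80, 2.40 for Cd40, 2.24 for Cd86 and 1.43 for Ciita. Dividing by the longest transcript in place of all exons kept Cd74 first, Ciita last and the loading genes in between, and placed H2-Ab1 (63.4 CPM per kb) above H2-Eb1 (46.1) and Cd86 (3.22) above Cd40 (2.74). Neighbours that differ between these lengths cannot be ordered.

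The partner chain of H2-Eb1 was missing. H2-Ea-ps, at chr17:34341959-34344645, the alpha chain of I-E, is known to be inactive in C57BL/6 mice, and it had 0 counts in all 8 libraries. With 3 counts as the limit, that allows at most 0.0503 to 0.0775 CPM per library, beside 63.2 to 89.6 CPM of H2-Eb1. The proteases that act on the invariant chain were far above the class II chains on the same scale, with 1434 CPM per kb for cathepsin S (Ctss), 453 for legumain (Lgmn) and 131 for cathepsin L (Ctsl).

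**Figure D1:**
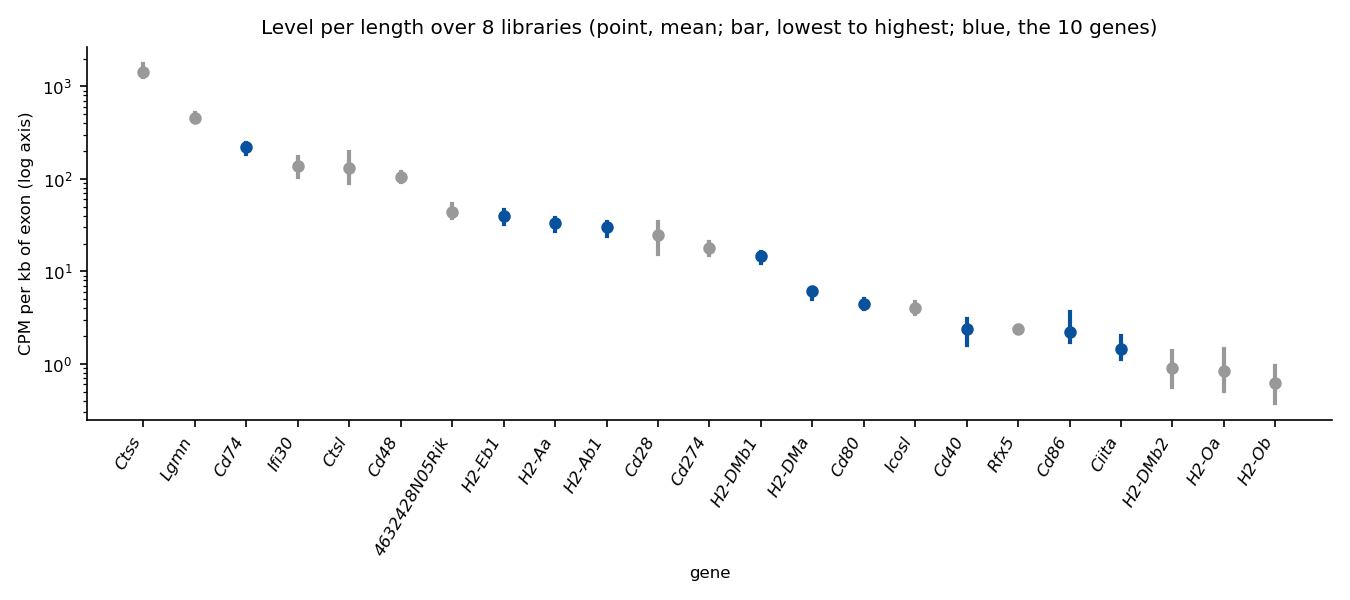
Mean level per length over the 8 libraries, in CPM per kb of exon on a log axis, for the 10 genes (blue) and 13 related genes (grey), ordered by level. Points are means and bars run from the lowest to the highest library, and Cd74 (220 CPM per kb) stands above the other class II genes while Ciita (1.43) is the lowest of the 10.

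No class II gene differed between CKO cells and their WT littermates by more than the error of these libraries. None of the 10 genes was called in PARP1CKO against PARP1 WT, where 14 genes of all 13197 were called (0.106%), and none in PARP2CKO against PARP2 WT, where 7 were called (0.053%), by edgeR's quasi-likelihood test. At an unadjusted p under 0.05 there was 1 of the 10 in the PARP1CKO comparison, Cd40, against 11.3% of all genes, and 0 in the PARP2CKO comparison against 4.83%. DESeq2 called 1 of the 10 in the PARP1CKO comparison (0.652% of all genes), again Cd40, and 0 in the PARP2CKO comparison (0.205%). The median log2 fold change of the 10 genes was -0.01 in PARP1CKO and 0.01 in PARP2CKO, beside 0.0059 and -0.0014 over all genes tested.

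The heterodimer I-A, made of the products of H2-Aa and H2-Ab1, is the class II molecule these mice can put on the surface. H2-Aa had 141 and 124 CPM in PARP1 WT mice, 103 and 145 CPM in PARP1CKO, 136 and 116 CPM in PARP2 WT mice, with PARP2CKO at 131 and 122 CPM. H2-Ab1 had 75.2 and 75.1 CPM in PARP1 WT mice, 62.5 and 88.1 CPM in PARP1CKO, 84.6 and 71.3 CPM in PARP2 WT mice, with PARP2CKO at 83.6 and 74.7 CPM. In both genes every pair of groups overlapped, and PARP1CKO held the lowest and the highest library of all 8. The log2 fold change of H2-Aa was -0.09 (standard error 0.142) in PARP1CKO and 0.01 (standard error 0.141) in PARP2CKO.

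H2-Eb1, the beta chain of I-E, had 74.4 and 77.4 CPM in PARP1 WT mice, 63.2 and 89.6 CPM in PARP1CKO, 84.0 and 68.3 CPM in PARP2 WT mice, with PARP2CKO at 79.1 and 79.8 CPM. Cd74, the invariant chain, had 383 and 379 CPM in PARP1 WT mice, 309 and 415 CPM in PARP1CKO, 394 and 341 CPM in PARP2 WT mice, with PARP2CKO at 387 and 347 CPM. The same PARP1CKO libraries were again the extremes, and the WT and CKO means of Cd74 lay between 362 ± 75.1 CPM (PARP1CKO) and 381 ± 2.32 CPM (PARP1 WT; SD, n = 2). H2-DMa had 20.0 and 21.7 CPM in PARP1 WT mice, 17.2 and 22.4 CPM in PARP1CKO, 22.2 and 20.7 CPM in PARP2 WT mice, with PARP2CKO at 22.8 and 20.7 CPM. Its partner H2-DMb1 ran from 20.6 CPM in PARP1CKO replicate 1 to 26.9 CPM in PARP2CKO replicate 1, and both loading genes overlapped between every pair of neighbouring groups in the order of their means.

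For these 6 structural and loading genes together, the 95% intervals of the fold change reached from 0.750 to 1.30 at most in either comparison. The smallest adjusted p of the 6 genes and Ciita was 0.678 (H2-DMb1 in PARP1CKO, edgeR's quasi-likelihood test), and the largest absolute log2 fold change was 0.16. Counting H2-DMb1 together with its copy H2-DMb2 changed no call.

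**Figure D2:**
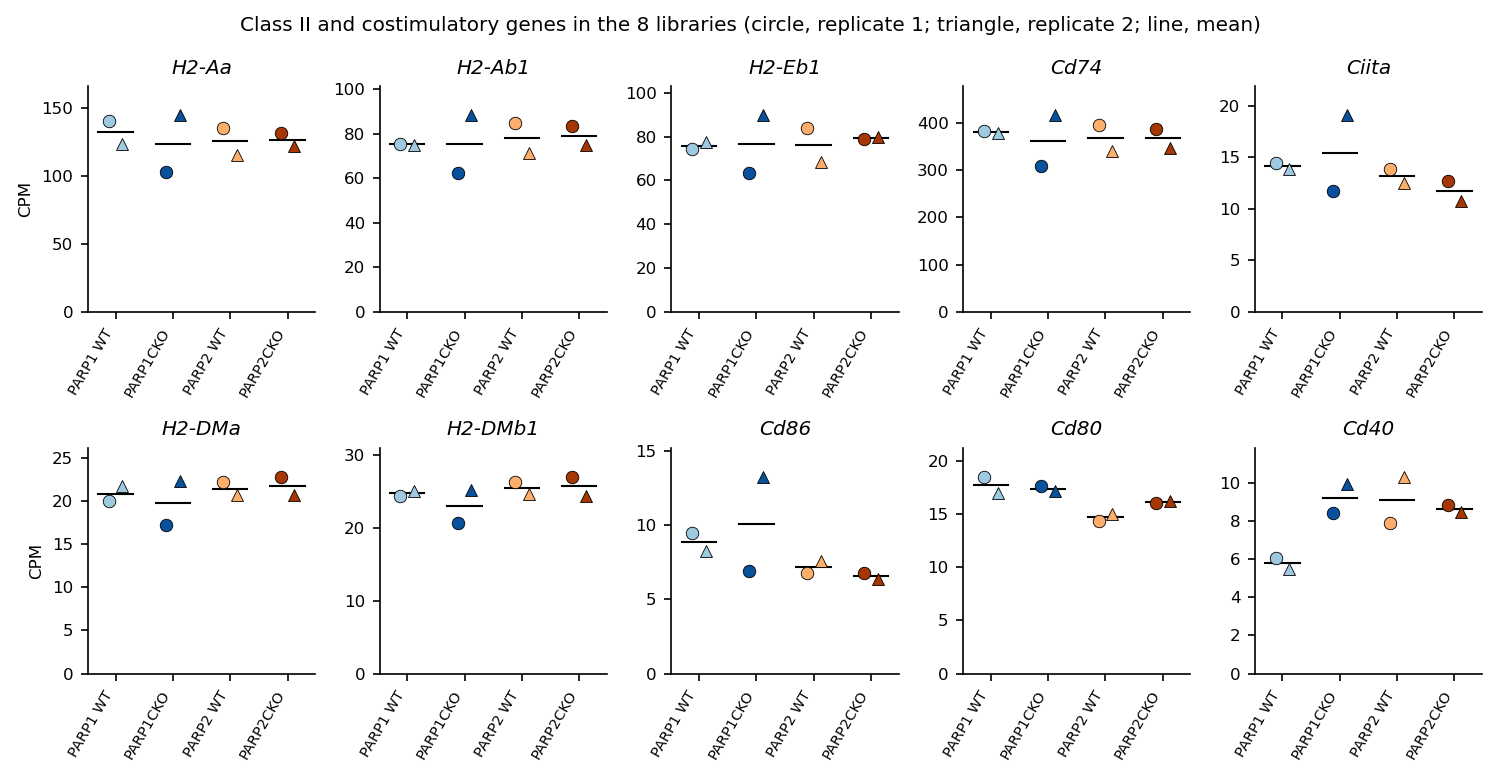
CPM of each of the 10 genes (y axis, from 0) in the 4 groups (x axis), with circles for replicate 1, triangles for replicate 2 and a line for the mean of the group. The PARP1CKO libraries are far apart in the 7 class II genes and in Cd86, and Cd40 is lowest in both PARP1 WT libraries (6.07 and 5.46 CPM).

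Ciita, whose product sets how much class II is transcribed, had 14.5 and 13.9 CPM in PARP1 WT mice, 11.7 and 19.1 CPM in PARP1CKO, 13.9 and 12.5 CPM in PARP2 WT mice, with PARP2CKO at 12.8 and 10.8 CPM. PARP1CKO overlapped PARP1 WT, and both PARP2 WT libraries lay just below both PARP1 WT libraries. The log2 fold change was 0.11 (standard error 0.192) in PARP1CKO and -0.16 (standard error 0.191) in PARP2CKO, with adjusted p-values of 0.853 and 0.973 (edgeR, quasi-likelihood test). The sign in PARP1CKO was set by a single library, since it was -0.28 without PARP1CKO replicate 2 and 0.43 without PARP1CKO replicate 1, neither of them called.

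The spread within PARP1CKO was shared by the class II genes. For all 7, the ratio of the higher to the lower replicate was larger in PARP1CKO than in any other group, from 1.22 in H2-DMb1 to 1.63 in Ciita, against at most 1.23 in the other groups. Over all genes, 28.1% were widest in PARP1CKO and 31.1% in PARP1 WT, and the replicates of PARP1CKO departed most from sampling noise, with a chi-square per gene of 12.9 against 8.57 to 10.4 in the other groups. PARP1CKO replicate 1 was the lowest of the 8 libraries in 6 of the 7 genes, Ciita being the exception, and PARP1CKO replicate 2 the highest in 5 of them, the exceptions being H2-DMa and H2-DMb1. Summed over H2-Aa, H2-Ab1, H2-Eb1 and Cd74, the level was 538 CPM in PARP1CKO replicate 1 and 738 CPM in replicate 2, and between 597 and 699 CPM in the other 6 libraries. Across the 8 libraries the log2 CPM of these 4 genes correlated with Pearson's r from 0.84 to 0.95, and from 0.49 to 0.83 over the 6 libraries without PARP1CKO. H2-DMa and H2-DMb1 correlated with r of 0.97, or 0.94 without PARP1CKO. Ciita followed them less closely, with r from 0.60 (H2-Eb1) to 0.77 (Cd74) for the chain genes and Cd74, 0.46 for H2-DMa and 0.34 for H2-DMb1, the lowest of the 21 pairs. These are descriptions over libraries that share their groups, and they carry no p.

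**Figure D3:**
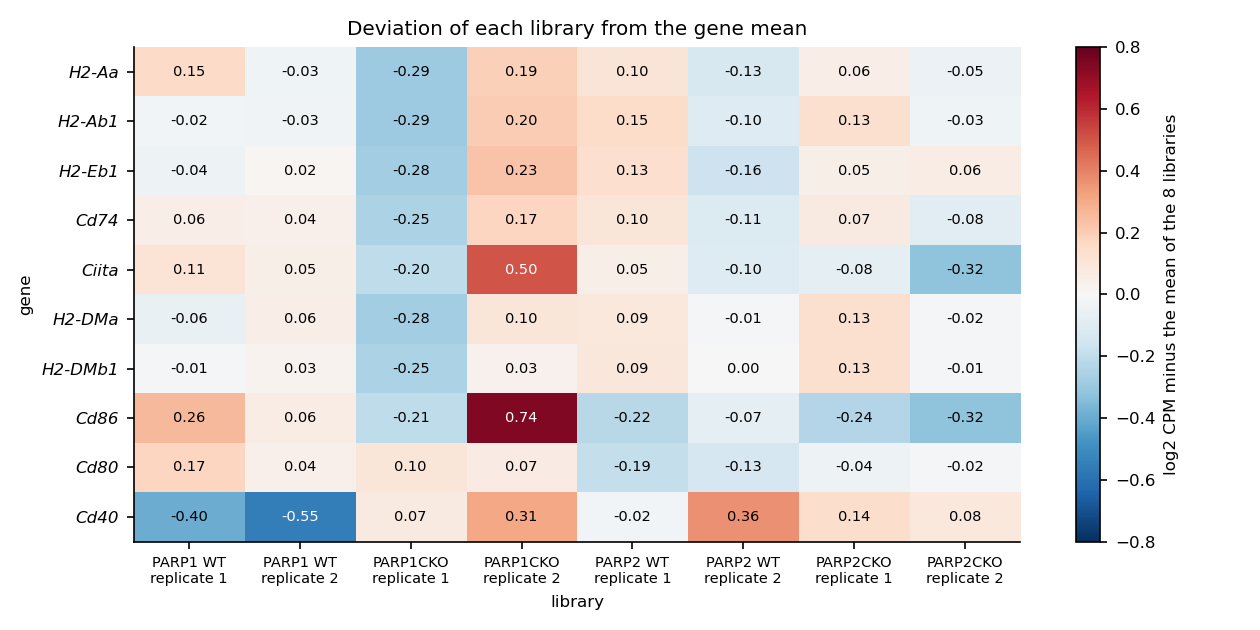
Log2 CPM of each gene in each library minus the mean of that gene over the 8 libraries (colour and printed value, from blue for lower to red for higher). The column of PARP1CKO replicate 1 is negative in the 7 class II genes, that of PARP1CKO replicate 2 is positive in them and reaches 0.74 in Cd86, and Cd40 is negative in both PARP1 WT libraries.

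Dendritic cells are the strongest carriers of class II, and the sum of their markers was compared with it. The summed level of the 11 dendritic cell markers was 41.1 CPM in PARP1CKO replicate 1, the lowest, and 55.4 CPM in replicate 2, and it ran from 44.8 to 56.7 CPM in the other 6 libraries. Its correlation with the summed class II level was 0.91 over 8 libraries and 0.82 without PARP1CKO, over points that are the same libraries. The correlation of the class II sum was 0.38 with Itgax alone and 0.46 with the other 10 markers summed, or 0.32 and 0.31 without PARP1CKO. The other markers were not correlated singly. Of the 11 markers, 2 (Itgax and Irf4) were lowest in PARP1CKO replicate 1 and 9 in another library, and Itgae was highest there. Between the lines the median of their log2 fold changes was -0.52, lower in PARP2 WT. Without overlap, 7 of 11 were lower (25.2% of all genes) and 2 higher (26.7%). The log2 fold changes of the 3 chain genes and Cd74 lay between -0.07 and 0.05. Itgax, which macrophages also express, was the most abundant marker with a mean of 21.7 CPM, no marker was at 0 in all libraries, and 2 of the 11 were under 1 CPM. None of the 11 was called in either CKO comparison, and DESeq2 called 0 in both. At an unadjusted p under 0.05 there were 0 in PARP1CKO (11.3% of all genes) and 1 in PARP2CKO (4.83%). Fewer cells of a type and less RNA per cell cannot be told apart in bulk RNA, and the part of these cells in the class II level was not tested. The summed B cell markers, which also belong to class II bearing cells, ran from 39.2 to 58.2 CPM in the 4 libraries of the PARP1 line. They ran from 18.0 to 22.3 CPM in the 4 of the PARP2 line. Their correlation with the class II sum was 0.14, or 0.23 without PARP1CKO. The other lists correlated with the class II sum by 0.79 (neutrophils), 0.35 (T and NK cells), 0.30 (monocytes), 0.12 (plasmacytoid dendritic cells), -0.13 (macrophages) and -0.13 (CD11b and Gr1 myeloid genes). Without PARP1CKO these were 0.45, -0.48, -0.43, 0.0350, -0.26 and -0.43 in the same order. The sign turned for T and NK cells and for monocytes. Of the 8 T and NK cell markers 7 had means under 1 CPM, and the highest mean was 2.13 CPM (Nkg7). The CD11b and Gr1 list lacked Ly6g, which was not among the counted genes. Its highest means were 1213 CPM (Csf1r) and 945 CPM (Itgam), beside 63.2 CPM for Ly6c2 and 0.738 CPM for Ly6c1.

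**Figure D4:**
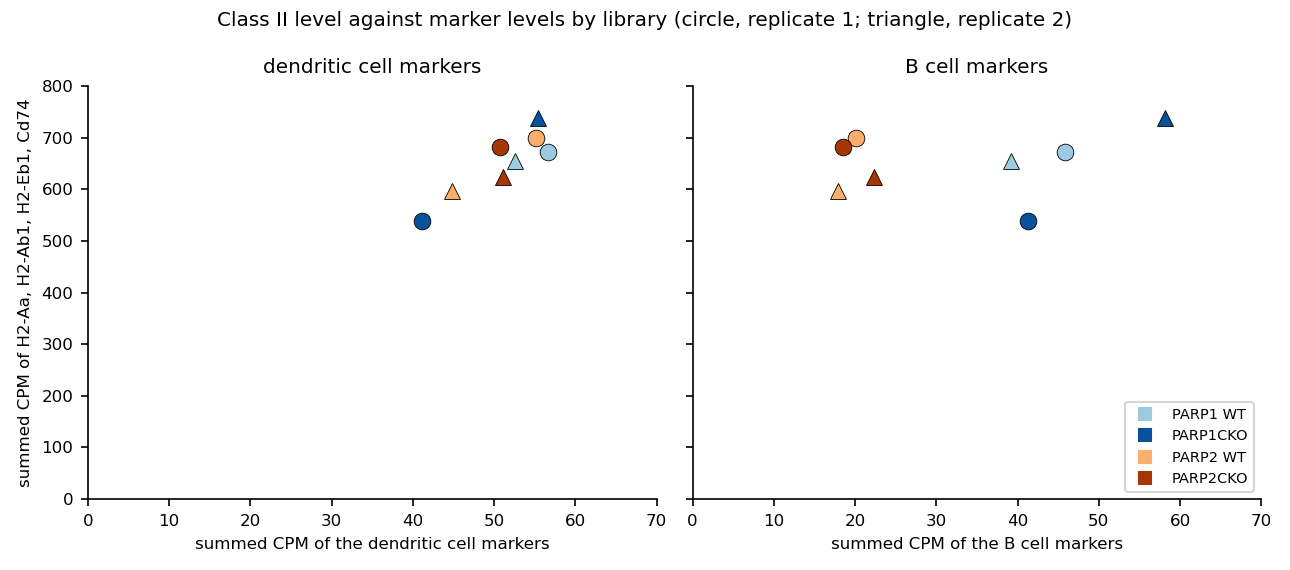
Summed CPM of H2-Aa, H2-Ab1, H2-Eb1 and Cd74 (y axis) against the summed CPM of dendritic cell markers (left) and B cell markers (right), 1 point for each library. The class II sum and the dendritic cell sum are lowest together in PARP1CKO replicate 1 (538 and 41.1 CPM), although 9 of the 11 dendritic cell markers are lowest in another library, and the B cell sum splits the libraries by line.

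Cd86 and Cd80 are related ligands of CD28, and they differed in how they varied. Cd86 had 9.51 and 8.30 CPM in PARP1 WT mice, 6.90 and 13.3 CPM in PARP1CKO, 6.81 and 7.57 CPM in PARP2 WT mice, with PARP2CKO at 6.76 and 6.36 CPM. A single library, PARP1CKO replicate 2, was high, at 1.92 times the other PARP1CKO library, and it rested on 600 counts against 307 to 412 in the other 7 libraries. The log2 fold change in PARP1CKO was 0.18 (standard error 0.245, with edgeR's quasi-likelihood test giving an adjusted p of 0.813), and it went to -0.37 without that library and to 0.58 without PARP1CKO replicate 1. In PARP2CKO it was -0.13 (standard error 0.250, adjusted p = 0.978), with both PARP2CKO libraries below both PARP2 WT libraries. Cd86 followed Ciita across the libraries with r of 0.92, or 0.73 over the 6 libraries without PARP1CKO.

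Cd80 varied least of the costimulatory genes, with a coefficient of variation of 8.24% over the 8 libraries against 28.1% for Cd86 and 20.7% for Cd40. It had 18.5 and 17.0 CPM in PARP1 WT mice, 17.6 and 17.2 CPM in PARP1CKO, 14.4 and 15.0 CPM in PARP2 WT mice, with PARP2CKO at 16.03 and 16.28 CPM. The PARP1 line lay above the PARP2 line in every library, and within the PARP2 line both PARP2CKO libraries lay above both PARP2 WT libraries. For PARP1CKO the log2 fold change came to -0.02 (standard error 0.0662, adjusted p = 0.919) and for PARP2CKO to 0.14 (standard error 0.0659, adjusted p = 0.954) by edgeR's quasi-likelihood test.

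Cd40, the receptor through which helper T cells activate antigen-presenting cells, had the smallest p of the 10 genes in PARP1CKO. Its PARP1CKO and PARP1 WT libraries did not overlap, which held for 1 of the 10 genes and for 41.2% of all genes. It had 6.07 and 5.46 CPM in PARP1 WT mice, 8.43 and 9.93 CPM in PARP1CKO, 7.89 and 10.3 CPM in PARP2 WT mice, with PARP2CKO at 8.82 and 8.47 CPM, on 235 to 536 counts. Both PARP1 WT libraries lay below all 6 others, which overlapped among themselves. In PARP1CKO the fold was 1.59 with a 95% interval from 1.27 to 2.00 (log2 fold change 0.67, standard error 0.143), with an unadjusted p of 0.00119 and an adjusted p of 0.176 over all genes by edgeR's quasi-likelihood test, so the gene was not called. By p it had rank 85 among the 13197 genes. It is among the genes the study displayed for this comparison of the same libraries, so its direction is no independent evidence.

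The Cd40 value kept its sign in all 16 alternatives, and its adjusted p ranged from 0.00468 to 0.382. It passed with no filter on low counts (0.0162), in DESeq2 (0.0197) and in edgeR's likelihood-ratio test (0.00468), which called 1.11% of all genes. With each library left out the log2 fold change ran from 0.55 without PARP1CKO replicate 2 to 0.79 without PARP1CKO replicate 1. In PARP2CKO it was -0.07 (standard error 0.135, adjusted p = 0.978). Set against each other, the effect in PARP2CKO minus that in PARP1CKO was -0.74 (standard error 0.197, unadjusted p = 0.00456, adjusted p = 0.493 by the same test), so it was not called, where 2 of all genes were (0.0152%), and DESeq2 called 0 of the 10 (0.341% of all genes). None of the other 9 genes had an unadjusted p under 0.05 for that difference, and 7.69% of all genes did.

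**Figure D5:**
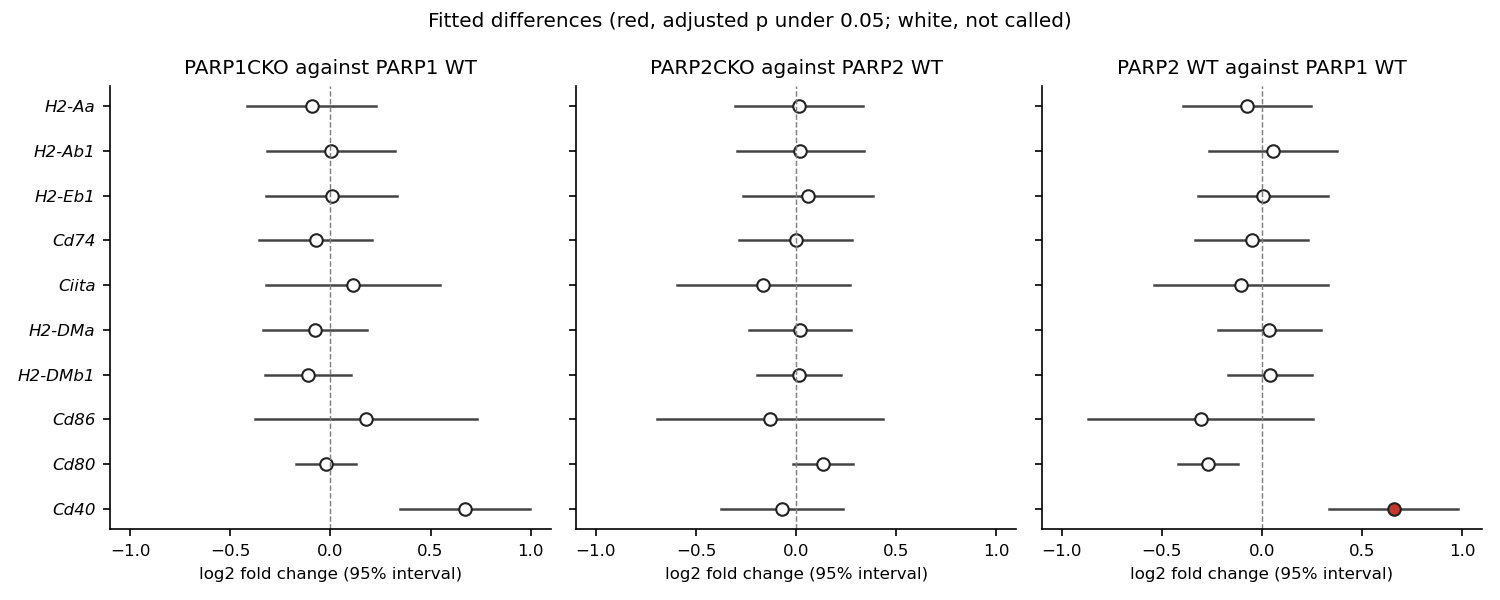
Log2 fold change of each of the 10 genes with its 95% interval from edgeR's quasi-likelihood fit, for PARP1CKO against PARP1 WT (left), PARP2CKO against PARP2 WT (middle) and PARP2 WT against PARP1 WT (right), with red for an adjusted p under 0.05. Most intervals cover 0, Cd40 lies at 0.67 on the left and at 0.66 on the right, and the 2 panels share the PARP1 WT libraries.

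Cd40 also differed between the 2 floxed lines without Cre, and there it passed the threshold. PARP2 WT was 1.58 times PARP1 WT (log2 fold change 0.66, standard error 0.142, adjusted p = 0.0449 by edgeR's quasi-likelihood test), and 1 of the 10 genes was called where 3.16% of all genes were. At an unadjusted p under 0.05 there were 2 of the 10, Cd40 and Cd80, against 18.9% of all genes, and DESeq2 called 1 (4.18%) and the likelihood-ratio test 2 (6.9%). This comparison and that of PARP1CKO use the same PARP1 WT libraries, so they are not independent. The call was lost in 8 of 16 alternatives, with an adjusted p from 0.00108 to 0.214. It was lost with library size alone (0.0619), with the 4 libraries of the comparison (0.0718) and with the replicate block (0.0603). Leaving out a library ended it for PARP1 WT replicate 1 (log2 fold change 0.73, adjusted p = 0.167), PARP1 WT replicate 2 (0.58, 0.156), PARP2 WT replicate 2 (0.45, 0.214), PARP2CKO replicate 1 (0.66, 0.0770) and PARP2CKO replicate 2 (0.66, 0.0763). The line and anything handled along with it cannot be told apart here.

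Between the lines, Cd80 was 0.830 times as high in PARP2 WT (log2 fold change -0.27, standard error 0.0664, adjusted p = 0.0702), and it passed with no filter (0.0493) and in the likelihood-ratio test (0.0264). Cd86 had a log2 fold change of -0.31 (adjusted p = 0.551) and Ciita of -0.10 (adjusted p = 0.817) by edgeR's quasi-likelihood test, with both PARP2 WT libraries below both PARP1 WT libraries in each. Groups did not overlap in 4 of the 10 genes, Cd40 higher and Ciita, Cd86 and Cd80 lower, where 51.9% of all genes were so separated, 26.7% higher and 25.2% lower. In PARP2CKO against PARP2 WT this held for 2 of the 10, Cd80 and Cd86 (37.2%). Of all genes, 3.16% were called between the lines by edgeR's quasi-likelihood test. The B cell markers differed in the direction opposite to Cd40, with 7 of 8 called lower in PARP2 WT and a median 3.49-fold lower. Some of these B cell marker calls were lost without PARP1 WT replicate 1. Of the 8 macrophage markers, 8 were fitted higher in PARP2 WT, 4 at an unadjusted p under 0.05 (18.9% of all genes) and 1 was called, Mertk (log2 fold change 0.76, adjusted p = 0.0053). Of the 5 monocyte markers 3 were fitted higher and 2 lower, with 1 called higher, Fn1 (0.78, adjusted p = 0.0070). Both are named after their values were seen, and both calls were lost without PARP1 WT replicate 1 (Mertk 0.70, adjusted p = 0.0590, and Fn1 0.68, adjusted p = 0.0585). All 6 plasmacytoid dendritic cell markers were fitted lower, and 2 of them were called, Ly6d and Spib. Both calls were lost without PARP1 WT replicate 1 or PARP2 WT replicate 2, and that of Spib also without PARP2 WT replicate 1. The B cell markers moved the same way, and whether the 2 lists move apart was not tested. The part of these cells in the Cd40 level, which B cells and macrophages also express, was not tested.

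The other class II and loading genes held 12 of 13 that passed the filter, and none was called in either CKO comparison by edgeR's quasi-likelihood test. At an unadjusted p under 0.05 there were 2 in PARP1CKO (11.3% of all genes) and 3 in PARP2CKO (4.83%). DESeq2 called 1 in each (0.652% and 0.205% of all genes). In PARP1CKO the smallest p was that of Ifi30, the thiol reductase that opens disulfide bonds of ingested protein, with PARP1 WT libraries at 119 and 102 CPM and 147 and 144 CPM in PARP1CKO (on the log2 scale 0.40, adjusted p = 0.250). It passed in 3 of 16 alternatives, in DESeq2 (0.00240), with no filter on low counts (0.0208) and in the likelihood-ratio test (0.0160), and its adjusted p reached 0.371 without PARP1 WT replicate 2. March1, whose ligase product removes class II from the surface, followed with a log2 fold change of -0.25 (adjusted p = 0.417), which was -0.42 without PARP1CKO replicate 2 and -0.0878 without PARP1CKO replicate 1.

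In PARP2CKO the smallest p values of that list were those of the proteases. Ctss stood at 1926 and 1903 CPM in the PARP2 WT libraries against 2375 and 2184 CPM in PARP2CKO (log2 fold change 0.25, adjusted p = 0.801 by edgeR's quasi-likelihood test, 0.0403 in DESeq2). Ctsl stood at 914 and 871 CPM in the PARP2 WT libraries against 1267 and 1035 CPM in PARP2CKO (log2 fold change 0.37, adjusted p = 0.888). The value of Ctsl was 0.21 without PARP2CKO replicate 1 and 0.51 without PARP2CKO replicate 2. The groups did not overlap in either gene. In the same comparison 5 of 8 macrophage markers were fitted higher and 3 lower, 3 and 0 of them at an unadjusted p under 0.05 (4.83% of all genes). Of the 8 neutrophil markers 7 were fitted lower and 1 higher, 2 and 0 of them at that p. None was called in either list by edgeR, and DESeq2 called 1 neutrophil marker (0.205% of all genes). Their part in the protease levels was not tested.

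The nonclassical genes H2-Oa and H2-Ob, which restrain H2-DM and are known from B cells, were low throughout. H2-Ob had 4.65 and 4.01 CPM in PARP1 WT mice, 3.55 and 5.11 CPM in PARP1CKO, 2.09 and 2.31 CPM in PARP2 WT mice, with PARP2CKO at 2.03 and 2.67 CPM. All 4 libraries of the PARP2 line lay below those of the PARP1 line, and H2-Ob was called lower in PARP2 WT than in PARP1 WT (log2 fold change -0.97, adjusted p = 0.0433 by edgeR's quasi-likelihood test). The call was lost without either PARP1 WT library (adjusted p = 0.232 without replicate 1 and 0.0777 without replicate 2), either PARP2 WT library (0.195 and 0.149) or either PARP2CKO library (0.0528 for both). It moved the same way as the B cell markers, whose part in it was not tested. H2-Oa, at 2.02 and 1.21 CPM in PARP1 WT against 1.07 and 0.711 CPM in PARP2 WT, was not called (adjusted p = 0.248), and H2-Eb2 stayed under 0.32 CPM in all libraries.

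The factors of the X and Y boxes differed little between CKO and WT cells. All 7 genes, Rfx5, Rfxap, Rfxank, Nfya, Nfyb, Nfyc and Creb1, passed the filter, none was called in the CKO comparisons, and DESeq2 called none. None had an unadjusted p under 0.05 in PARP1CKO (11.3% of all genes) or PARP2CKO (4.83%). Between the lines none was called by edgeR's quasi-likelihood test, and 1 had an unadjusted p under 0.05 (18.9% of all genes). Without overlap, 3 were higher in PARP2 WT (26.7%) and 2 lower (25.2%). The smallest p in PARP1CKO was that of Nfyb (log2 fold change -0.11, adjusted p = 0.492 by edgeR's quasi-likelihood test), followed by Nfya (-0.10). In PARP2CKO Nfyb (0.13, adjusted p = 0.954) was followed by Rfxank (-0.15). The summed level of the 7 genes lay between 322 and 351 CPM in all libraries.

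The inducers and repressors of Ciita comprise the interferon-gamma receptor, its relays, and the factors that act on the Ciita promoters. All 14 passed the filter, none was called in the CKO comparisons, and DESeq2 called none. An unadjusted p under 0.05 was reached by 1 in PARP1CKO (11.3% of all genes) and 0 in PARP2CKO (4.83%). The genes with the smallest p were Irf8 (log2 fold change 0.10, adjusted p = 0.421 by edgeR's quasi-likelihood test) and Spi1 (0.11) in PARP1CKO, and Ifngr1 (0.08) and Jak2 (-0.09) in PARP2CKO.

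Of the other costimulatory and inhibitory ligands, 15 of 17 passed the filter and Cd70 had 0 counts in all libraries. None was called in the CKO comparisons, and DESeq2 called none. At an unadjusted p under 0.05 there were 2 in PARP1CKO (11.3% of all genes) and 1 in PARP2CKO (4.83%). The inhibitory ligand VISTA, listed as 4632428N05Rik, was the most abundant with 189 to 269 CPM. In PARP1CKO the smallest p values were those of Tnfsf4, which encodes OX40 ligand (log2 fold change 0.52, adjusted p = 0.321 by edgeR's quasi-likelihood test), and Pvrl2, which encodes nectin-2 (0.45, adjusted p = 0.382). The value of Tnfsf4 was 0.24 without PARP1 WT replicate 2 and 0.84 without PARP1 WT replicate 1. In PARP2CKO they were those of Icosl (-0.17, adjusted p = 0.954) and Cd48, a ligand of CD244, at 111 and 112 CPM in PARP2 WT against 130 and 131 CPM in PARP2CKO (0.23, adjusted p = 0.538). Cd48 had 143 and 129 CPM in PARP1 WT and was called lower in PARP2 WT than there (-0.29, adjusted p = 0.0217), a call lost without PARP1 WT replicate 1 (-0.21, adjusted p = 0.103), PARP2 WT replicate 1 (-0.28, 0.116) or PARP2 WT replicate 2 (-0.29, 0.110).

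The genes that carry the CD40 signal, the TRAF adaptors, the cIAP ligases and the kinases and factors of noncanonical NF-kB, were present throughout. All 11 passed the filter, none was called in the CKO comparisons, and DESeq2 called none. None had an unadjusted p under 0.05 in PARP1CKO (11.3% of all genes) or PARP2CKO (4.83%). Map3k14, the kinase NIK, had a log2 fold change of 0.11 in PARP1CKO (adjusted p = 0.532 by edgeR's quasi-likelihood test) and Birc2 one of -0.08. In PARP2CKO the genes with the smallest p were Birc3 (-0.12) and Traf1 (0.26), both with an adjusted p of 0.954. The summed level of the 11 genes lay between 304 and 325 CPM in all libraries.

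The receptors that T cells use for these ligands were low or near 0 with the exception of Cd28. Ctla4 and Cd40lg had at most 0.0692 CPM in any library, Lag3 at most 0.398 CPM and Cd4 1.16 to 2.85 CPM, and the T cell genes Cd3d, Cd3e and Cd3g had at most 0.115 CPM. Of the 5 receptors 3 passed the filter, and none was called in the CKO comparisons. At an unadjusted p under 0.05 there was 1 in PARP1CKO, Cd4 (11.3% of all genes), and 1 in PARP2CKO, Cd28 (4.83%). For Cd4 the log2 fold change was 0.49 in PARP1CKO (adjusted p = 0.430, edgeR's quasi-likelihood test) and -0.39 in PARP2CKO. The latter ran from -0.68 to -0.11 with each library left out. Cd28 had 210 and 192 CPM in PARP1 WT mice, 179 and 185 CPM in PARP1CKO, 124 and 120 CPM in PARP2 WT mice, with PARP2CKO at 93.6 and 109 CPM. All libraries of the PARP1 line lay above all of the PARP2 line, and Cd28 was called lower in PARP2 WT than in PARP1 WT (log2 fold change -0.72, standard error 0.0724, adjusted p = 0.00212 by edgeR's quasi-likelihood test) and in all 16 alternatives, with an adjusted p of at most 0.0254. In PARP2CKO the log2 fold change was -0.27 (adjusted p = 0.801), with both CKO libraries below both WT libraries, and in PARP1CKO it was -0.14 (adjusted p = 0.490). Cd28 is the receptor of Cd80 and Cd86, and per length its mean level (24.8 CPM per kb) was above theirs.

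Some genes outside these lists followed the members closely across the 8 libraries, out of 13187 compared by Pearson's r of log2 CPM. Among the 5 genes most like the mean pattern of H2-Aa, H2-Ab1, H2-Eb1 and Cd74 were Smarca2 (0.97, or 0.94 without PARP1CKO), Fam107b (0.95, or 0.80) and Svip (0.93, or 0.86), and 10 genes were above 0.9. Most like Cd86 were Arl4c (0.98), Gss (0.98), Ccdc163 (0.97), Ccl25 (0.96) and H2-Q8 (0.96), and 82 genes were above 0.9. Without PARP1CKO replicate 2 and PARP1 WT replicate 1 the 5 values were 0.89, 0.86, 0.96, 0.93 and 0.90 in that order. H2-Q8 had a mean of 0.707 CPM. Most like Cd40 were Ggnbp1 (0.98), Zcchc14 (0.97), Mfsd6l (0.96), Fbxo31 (0.96) and Anks1 (0.95), with 41 above 0.9. Without the 2 PARP1 WT libraries the 5 values were 0.92, 0.90, 0.81, 0.77 and 0.87 in that order. Ggnbp1 and Mfsd6l had means of 0.558 and 0.399 CPM. With 8 points and so many genes, values of this size describe the libraries only, and they carry no p.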

How the data were processed

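RNA-seq of 8 IMC libraries was analysed from the raw count table deposited by the authors, 1 column for each library, with groups taken from the sample labels. The authors extracted total RNA, made stranded total RNA libraries from 4 µg of DNase-treated RNA, sequenced single-end reads of 75 bases, and used FastQC 0.11.2, TopHat 2.0.12 on mm10, Picard 1.127 and featureCounts. The annotation, the strand setting of the counting and whether the duplicates marked with Picard were counted are not given in the sources used here, so reads of overlapping genes on opposite strands may be mixed.

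Counts were filtered with filterByExpr, scaled by TMM and fitted in edgeR 4.0.16 (R 4.3.3) with 1 mean for each of 4 groups over all 8 libraries, and tested by quasi-likelihood, with p-values adjusted after Benjamini and Hochberg over 13197 genes. Standard errors and 95% intervals came from the same fit, and log2 CPM used a prior count of 2. Levels per length used exons of GENCODE M21. Totals of 37852450 to 61845125 counts set the depth, and a count of 0 was read against a limit of 3 counts, which covers counting error only. Alternatives were DESeq2 1.42.0 (size factors and test), library size alone, no filter, at least 1 CPM in 2 libraries, the likelihood-ratio test, only the 4 libraries of a comparison, a replicate block and each library left out. H2-DMb1 summed with H2-DMb2 and a crossed block were added after seeing the data.

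The members and gene lists were chosen with earlier results of these data known. Named are every member, the called genes of each pathway list or else the 2 with the smallest p in each CKO comparison, the most abundant gene of marker lists that bear on a result, and the 5 genes most like each pattern. Some genes that this rule names are not reported here.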

Additional observations from a re-analysis of the deposited data

How the results depend on the processing

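With 14 genes called in PARP1CKO against PARP1 WT, 101 were called with no filter on low counts, 86 by DESeq2 and 146 by the likelihood-ratio test, and 1 to 34 with each library left out. Of the 10 genes, 0 were called and 1 (Cd40) under each of those 3 settings. In PARP2CKO against PARP2 WT the 7 calls became 26, 27 and 39, and 4 to 19 with each library left out. For the difference between the effects, 2 became 61, 45 and 72, and 1 to 16. Between the lines, 417 became 872 with no filter and 910 by the likelihood-ratio test, and 85 to 566. Of the 10 genes, 1 was called there, 2 with no filter or the likelihood-ratio test, 0 with library size alone, the 4 libraries or the replicate block, and 0 to 1 with each library left out. The causes were not tested.

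Same-numbered replicates deviated with r from -0.13 to 0.15 between groups (0.15 for PARP2 WT with PARP2CKO), and the labels do not say what a number marks, so pairing was not established. With the replicate block 14 genes were called in PARP1CKO, 6 in PARP2CKO, 3 for the difference and 315 between the lines. A crossed block, chosen after seeing the data, gave 18 genes in PARP1CKO and 0 of the 10.

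Signs turned only in fits near 0 or on leaving out a library, and the cause was not tested. In PARP1CKO, H2-Ab1 went from 0.0018 to -0.00040 with DESeq2 size factors, -0.00082 with library size alone and -0.0013 with the 4 libraries. With library size alone, values in PARP2CKO became -0.013 for H2-Aa, -0.0055 for H2-Ab1, -0.0061 for H2-DMa and -0.013 for H2-DMb1, the difference for H2-Ab1 became -0.0047, and between the lines H2-Eb1 became -0.034 and H2-DMa -0.00076.

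With each library left out, PARP1CKO log2 fold changes ran from -0.36 to 0.13 for H2-Aa, -0.27 to 0.23 for H2-Ab1, -0.27 to 0.24 for H2-Eb1, -0.30 to 0.12 for Cd74, -0.28 to 0.43 for Ciita, -0.28 to 0.10 for H2-DMa, -0.26 to 0.0273 for H2-DMb1, -0.37 to 0.58 for Cd86, -0.0908 to 0.0367 for Cd80 and -0.21 to 0.0051 for Nfya. Without a change of sign, Spi1 ran from 0.0314 to 0.18 and Cd28 from -0.21 to -0.0792 there, and Cd28 from -0.38 to -0.16 in PARP2CKO. In PARP2CKO they ran from -0.0950 to 0.13 for H2-Aa, -0.10 to 0.15 for H2-Ab1, -0.0795 to 0.22 for H2-Eb1, -0.10 to 0.11 for Cd74, -0.0532 to 0.0876 for H2-DMa, -0.0622 to 0.0827 for H2-DMb1 and -0.25 to 0.13 for Cd40. For the difference they ran from -0.12 to 0.37 for H2-Aa, -0.21 to 0.29 for H2-Ab1, -0.18 to 0.33 for H2-Eb1, -0.13 to 0.30 for Cd74, -0.59 to 0.12 for Ciita, -0.0775 to 0.30 for H2-DMa, -0.0137 to 0.28 for H2-DMb1 and -0.71 to 0.24 for Cd86. Between the lines they ran from -0.19 to 0.0352 for H2-Aa, -0.0751 to 0.17 for H2-Ab1, -0.15 to 0.14 for H2-Eb1, -0.16 to 0.0484 for Cd74, -0.0181 to 0.10 for H2-DMa, -0.0059 to 0.0849 for H2-DMb1 and -0.41 to 0.28 for Parp1. Other values moved without a change of sign. In PARP2CKO, Ciita ran from -0.29 to -0.0499, Cd86 from -0.21 to -0.0525, Ifngr1 from 0.0298 to 0.13 and Jak2 from -0.12 to -0.0517. Map3k14 ran from 0.0631 to 0.16 and Birc2 from -0.12 to -0.0479 in PARP1CKO. Ciita ran from -0.18 to -0.0331 between the lines.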
